A study of Mus musculus with 24 samples.

Results

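Endothelial cells sorted from Wnt medulloblastomas of mice were compared here with endothelial cells sorted from normal adult hindbrain. Members were chosen by their labels alone: the 8 arrays of Wnt tumour cells and the 8 arrays of hindbrain cells, 16 of the 24 arrays in the series, described over 22180 genes. The other 8 arrays hold cells of a Shh medulloblastoma model and are used only to share the estimate of spread and to say where the Wnt arrays stand apart from them.

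The hindbrain mice were wild type. The Wnt tumour mice carried Blbp-Cre together with 3 altered loci, 1 of them Ctnnb1 +/Exon3 flox, which stabilises beta-catenin. The others were Trp53 flox/flox, which removes p53, and Pik3ca +/flox. The Shh tumour mice carried Ptch+/- and Ink4c-/-. Blbp is the product of Fabp7, and its promoter drives Cre in radial glia and neural progenitors, so the alleles are recombined in the lineage of the tumour and not by an endothelial Cre. All mice had a mixed strain background. Ages are given only as adult for the hindbrain. Tissue was digested with papain, blocked against Fc receptors and sorted with magnetic beads for Cd105 (encoded by Eng) and Cd144 (encoded by Cdh5), after which total RNA was labelled as biotinylated cRNA for Affymetrix arrays. The labels call the arrays of a group biological replicates and do not say whether an array holds 1 animal or several.

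Brain endothelium forms the blood-brain barrier under Wnt signals from the neural tissue: beta-catenin, together with TCF and LEF factors, keeps transporters and tight junctions expressed and keeps the vessel wall closed. Medulloblastomas of the Wnt subgroup carry stabilised beta-catenin in the tumour cells and are known for secreting Wnt inhibitors and for leaky, fenestrated vessels. Endothelial cells of any origin share junction proteins, the angiopoietin and VEGF receptors and the transcription factors Erg and Fli1, which serve here as the yardstick of endothelial marker level.

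Values are log2 levels of a probe set, 1 per gene, and a difference is the Wnt mean minus the hindbrain mean on that scale, so 1 is a 2-fold change. A value after ± is a standard error of such a difference unless SD is written. For a gene described in full, the lowest, median and highest of the 8 arrays of a group are given before the difference. Tests across genes are limma's moderated test with Benjamini-Hochberg adjustment over all 22180 genes, two-sided, and a gene is said to have risen or fallen where its adjusted p was under 0.05. Probe sets against 92 ERCC spike-in sequences, which no mouse gene holds, gave a measure of background: their 95th percentile was 5.24, and a level at or below it is called background.

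MicroRNA genes with large differences in either direction are shown first, chosen after their values were seen. Sequences are the mature microRNAs of RefSeq on GRCm38.p6, written 5′ to 3′ with the seed, bases 2 to 8, in capitals. The array measures the precursor or the transcript around it, not the mature molecule, and both arms of each are printed because the array cannot tell which arm would accumulate. The first set belongs to genes that rose in Wnt arrays:
miR-9-5p of Mir9-2: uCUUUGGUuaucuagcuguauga
miR-9-3p of Mir9-2: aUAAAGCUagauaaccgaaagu
miR-1251-5p: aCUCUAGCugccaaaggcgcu
miR-1251-3p: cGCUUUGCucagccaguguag
miR-491-5p: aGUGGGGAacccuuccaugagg
miR-491-3p: cUUAUGCAagauucccuucuac

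The second set belongs to genes that fell:
miR-23a-5p: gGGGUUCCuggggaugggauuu
miR-23a-3p: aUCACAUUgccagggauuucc
miR-27a-5p: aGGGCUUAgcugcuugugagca
miR-27a-3p: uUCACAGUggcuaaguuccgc
miR-142a-5p: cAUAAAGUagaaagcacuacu
miR-142a-3p: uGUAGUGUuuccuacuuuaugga
miR-505-5p: gGGAGCCAggaaguauugauguu
miR-505-3p: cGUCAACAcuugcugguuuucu

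These 14 arms have 14 different seeds, so no seed was shared between a rising and a falling gene. Mir9-2, whose product is a regulator of neural progenitors, lies at chr13:83738821-83738879 on the plus strand. Mir1251 lies on the minus strand of chromosome 10 and Mir491 on the plus strand of chromosome 4. Mir23a and Mir27a are neighbours on the plus strand of chromosome 8, Mir142 lies on the plus strand of chromosome 11, and Mir505 lies on the minus strand of chromosome X.

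Of 478 microRNA genes measured, 193 lay above background in either group, and of these 19 rose and 52 fell. Over all genes, 45.3% passed the test, 23.2% higher and 22% lower in Wnt arrays, with 6.79% higher and 5.29% lower by at least 2-fold. Mir9-2 read 2.80, 3.01 and 3.22 in hindbrain (lowest, median, highest) and 5.58, 7.26 and 7.58 in Wnt arrays, a rise of 3.85 ± 0.38 from background (limma adjusted p = 7.36e-09), with no overlap between the groups. It lies inside the long non-coding RNA C130071C03Rik, which rose by 3.23 ± 0.27. Mir1251 read 3.30, 4.06 and 4.80 in hindbrain and 6.24, 7.55 and 9.25 in Wnt arrays and rose by 3.69 ± 0.32 (limma adjusted p = 6.71e-10). Its surrounding gene is Rmst, a long non-coding RNA of neural progenitors, which rose by 5.08 ± 0.30, and the groups were apart for both.

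Mir491, inside Focad, rose by 2.22 ± 0.26 while Focad rose by 1.88 ± 0.13. Among the fallers, Mir142, which blood cells express, read 7.68, 8.99 and 9.61 in hindbrain and 4.98, 6.10 and 7.70 in Wnt arrays. It fell by 2.57 ± 0.29 (limma adjusted p = 5.96e-08), and the highest Wnt array just passed the lowest hindbrain array. Mir23a and Mir27a, made from 1 precursor transcript, fell together, by 1.75 ± 0.30 and 1.67 ± 0.28. Mir505 read 10.15, 10.96 and 11.32 in hindbrain and 7.23, 8.86 and 9.87 in Wnt arrays and fell by 2.14 ± 0.31, with the groups apart.

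Some of these changes ran with the gene around them. Of the 71 called microRNA genes above background, 47 lie inside a measured gene. A surrounding gene was itself called in the same direction for 26 of those, only in the opposite direction for 6 and not at all for 15. The other 24, among them Mir142, Mir23a, Mir27a and Mir505, have no measured gene around them. Mir28c (-2.62) lies in Samd12 (-2.22), Mir1938 (-2.44) in Ifrd1 (-2.15) and Mir145a (-1.37), a smooth muscle microRNA, in Carmn (-1.20). Mir3110 was opposite, falling by 1.32 ± 0.14 inside Tmem255a, which rose by 3.18 ± 0.39. Whether the probes tell the strands of such overlapping transcripts apart is not given in the sources used here, so a microRNA and its host cannot be told apart.

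Across the whole transcriptome, change was widespread, balanced in number and lopsided in size. The median difference was -0.02, the middle 90% of genes lay between -1.04 and 1.30, and 5152 genes rose while 4888 fell. Rises reached further than falls. At 4-fold or more (a difference of 2), 532 rose and 269 fell. At a difference of 4, 64 rose and 12 fell, and at 5, 19 rose and 3 fell. For 4436 genes, 20% of all, the gene was called and the 8 Wnt values did not overlap the 8 hindbrain values.

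Rising and falling genes started from different levels. Genes that rose at least 2-fold had a median hindbrain level of 6.61 and a median Wnt level of 8.68, and 158 of them came up from background. Those that fell at least 2-fold had a median hindbrain level of 9.19 and a Wnt level of 7.48, and 101 of them went down to background. In the band of hindbrain levels from background to 7, 25.1% rose and 1173 of 6525 genes fell, with 755 rises and 122 falls of at least 2-fold. In the band from 11 to 12, 20.8% rose and 55.5% fell, with 4 rises and 111 falls of at least 2-fold. Most transcripts abundant in hindbrain endothelium fell, and the strong rises came from genes that were dim there. The hindbrain level that sets the bands also enters the difference, so falls are favoured in bright bands and rises in dim ones. A gene at background has no room to fall on this scale.

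**Figure D1:**
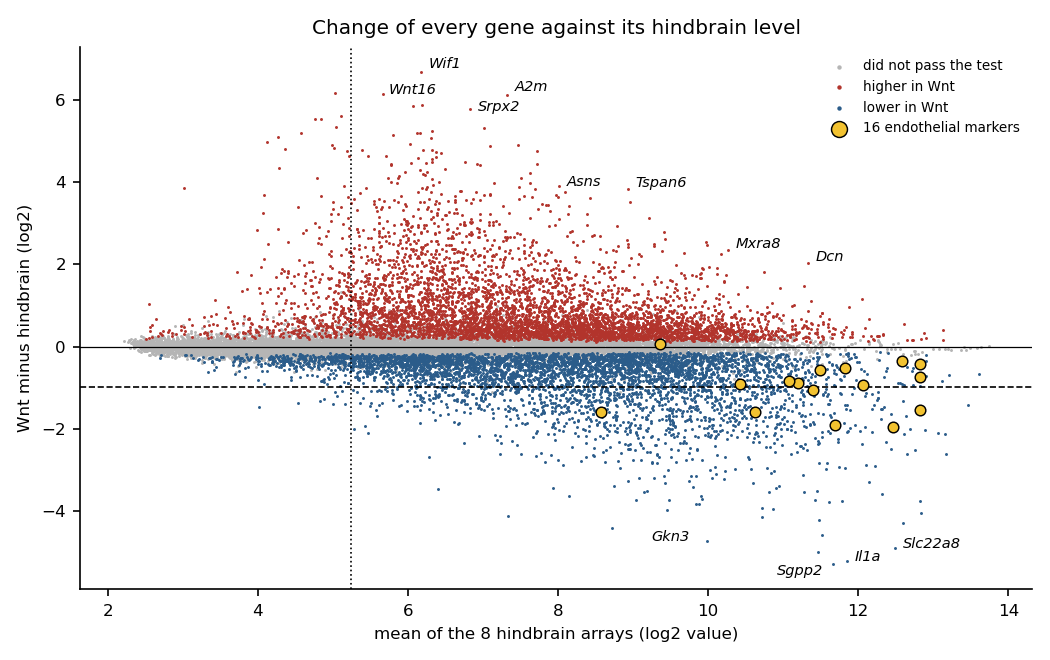
Wnt minus hindbrain difference (log2) of each gene against its mean hindbrain level (log2), with called rises in red, called falls in blue and genes that did not pass in grey. The dotted vertical line marks background (5.24), the dashed line the fall of the mean of 16 endothelial markers (-0.98), and the large points those markers. Strong rises sit at the left and centre and strong falls at the right.

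The endothelial yardstick itself was lower in Wnt arrays. Averaged over 16 pan-endothelial markers, hindbrain arrays lay between 11.26 and 11.59 (mean 11.45 ± 0.095, SD, n = 8) and Wnt arrays between 9.79 and 10.99 (mean 10.47 ± 0.45, SD, n = 8). The difference of -0.98 corresponds to 50.7% of the hindbrain signal (exact permutation test, two-sided, p = 0.000155, the smallest that 12870 divisions can give). All 8 Wnt arrays lay below all 8 hindbrain arrays, and among them array 8 (9.79), array 1 (9.92) and array 7 (10.27) were lowest. In bulk samples, fewer endothelial cells, less RNA per cell and lower expression of the marker genes themselves cannot be told apart. Values relative to the markers are therefore no correction for endothelial content.

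Markers did not move as 1 block. Of the 16, 15 fell and Clec14a, an endothelial lectin, did not pass the test (0.06 ± 0.22, limma adjusted p = 0.849). Flt1, a VEGF receptor, read 12.37, 12.46 and 12.52 in hindbrain and 9.54, 10.56 and 11.30 in Wnt arrays, a fall of 1.94 ± 0.19. Tek, the angiopoietin receptor, fell by 1.91 ± 0.20, Erg by 1.60 ± 0.18, Icam2 by 1.58 ± 0.14 and Ptprb, the phosphatase that acts on Tek, by 1.54 ± 0.16. These 5 fell beyond the mean of the markers, and 6 markers were higher relative to it. All are members of that mean, so some must lie below it and others above. Both sort antigens fell less, Cdh5 by 0.41 ± 0.11 and Eng by 0.74 ± 0.10, and the shift was -0.58 on those 2 genes alone, -0.83 on junction and surface genes and -1.24 on transcription factors and receptors.

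Defining markers of other cell types moved as well, in both directions. Counts of a list or family, here and below, stand beside 23.2% of all genes that rose and 22% that fell. Microglia and macrophage markers fell in 14 of 16, with 0 rises, and their summed signal lay between 14.54 and 15.47 in hindbrain and between 11.99 and 13.77 in Wnt arrays. Pericyte markers fell in 7 of 12 with 0 rises, with sums from 14.2 to 15.1 and from 13.0 to 14.6, so the groups overlapped. Platelet and erythroid markers fell in 4 of 5, led by the platelet genes Gp9 (-3.15 ± 0.18) and Ppbp (-2.83 ± 0.21). Lymphocyte markers fell in 6 of 9 and 3 of them lay at background in both groups. Neutrophil and mast cell markers passed limma's adjusted threshold in 0 of 10, with 0 at an unadjusted p under 0.05 and 2 lower in a limma fit of the 16 arrays alone, and 8 lay at background in both groups.

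Fibroblast and meningeal markers rose in 8 of 12 and fell in 2, with sums from 12.2 to 12.7 in hindbrain and from 13.9 to 14.7 in Wnt arrays. All 5 markers of the Wnt subgroup of medulloblastoma rose, with a median of 4.19 and sums from 8.17 to 8.74 against 13.0 to 13.7. Of 5 markers of the Shh subgroup, 3 rose. The lymphatic genes Prox1 (2.75 ± 0.26) and Pdpn (2.96 ± 0.22) rose, as did 3 of 6 lymphatic markers with 0 falls. Choroid plexus and ependymal markers fell in 5 of 8 and rose in 2, Otx2 (4.93 ± 0.46) and Clic6 (3.68 ± 0.35). Their sums overlapped, from 9.59 to 13.25 (median 10.16) in hindbrain and from 11.80 to 12.50 (median 11.98) in Wnt arrays. Ttr, the transthyretin gene, fell by 3.20 ± 0.91 and ran from 5.99 to 12.66 among hindbrain arrays and from 5.67 to 6.49 among Wnt arrays. Astrocyte markers rose in 3 of 12 and fell in 1, yet their sums were apart, from 13.00 to 13.37 in hindbrain and from 13.53 to 13.93 in Wnt arrays. Granule neuron precursor markers rose in 3 and fell in 3 of 11, with sums from 11.58 to 11.86 and from 12.14 to 12.46. Neuron markers rose in 5 and fell in 4 of 12, and oligodendrocyte markers rose in 1 and fell in 7 of 11, with overlapping sums for both. The part of these cell types in the changes below was not tested.

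**Figure D2:**
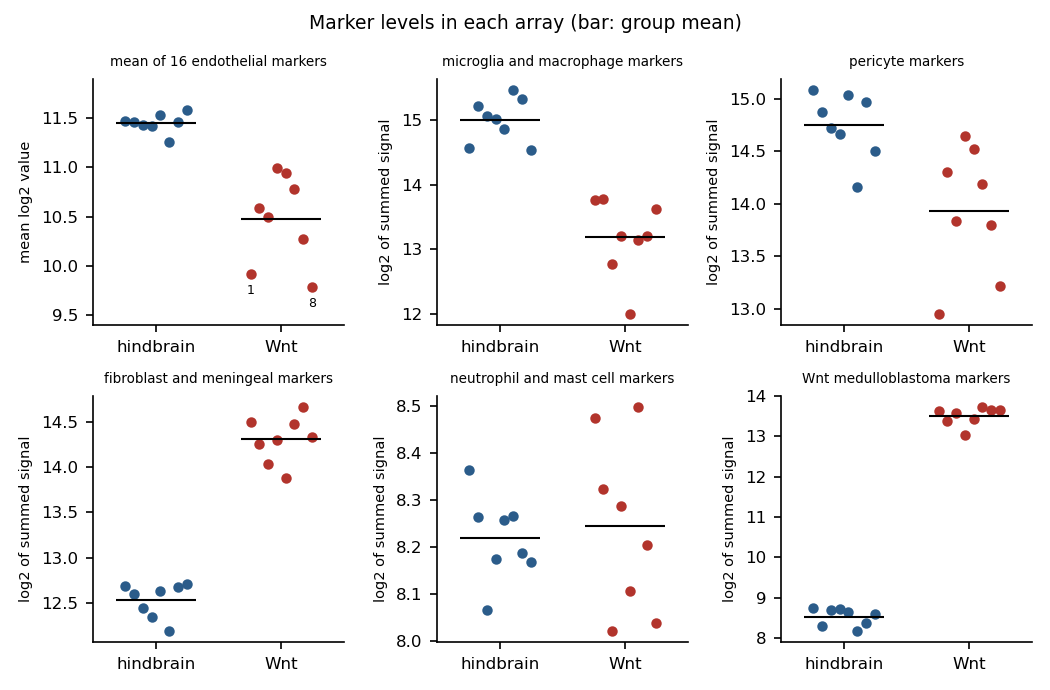
Each point is 1 array, hindbrain in blue and Wnt in red, with the group mean as a bar. The first panel gives the mean log2 value of 16 endothelial markers, with Wnt arrays 1 and 8 numbered, and the others the log2 of the summed signal of a marker list. Endothelial, microglial, fibroblast and Wnt tumour markers separate the groups completely, while pericyte and neutrophil sums overlap.

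Genes altered in the model were read with probe sets whose place relative to the deleted exons is not given, so they check no genotype. Ctnnb1, which encodes beta-catenin, lay between 11.72 and 12.11 in hindbrain and between 11.54 and 11.93 in Wnt arrays and fell by 0.24 ± 0.07 (limma adjusted p = 0.00788). Pik3ca did not pass the test (0.01 ± 0.07, limma adjusted p = 0.941), and Trp53 was not analysed here because its probe sets do not carry 1 single symbol. Fabp7, whose promoter drives the Cre, rose by 1.31 ± 0.32 with overlapping groups.

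Wnt arrays differed more among themselves than hindbrain arrays did, and among bright genes most in those that fell beyond the markers. The median SD within a group was 0.177 in hindbrain, 0.209 in Wnt and 0.210 in Shh arrays over all genes. Among the 1692 genes with a hindbrain mean of at least 10, called bright below, it was 0.126 in hindbrain and 0.195 in Wnt arrays. For the 253 bright genes that fell beyond the endothelial markers it was 0.182 against 0.574, while for the 414 bright genes that rose it was 0.112 against 0.144. These rises were smaller than the falls, with a median difference of 0.37 against -1.95, so size was not matched. Genes that rose from lower levels are not in this comparison. Among them Dkk2 had a Wnt SD of 1.32 and A2m one of 0.143.

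Subtracting each array's endothelial mean narrowed the Wnt spread for 123 of those 253 genes (48.6%), against 12 of the 414 risers (2.90%) and 6.15% of all genes. The other genes became more variable. The marker mean itself had an SD of 0.45 among Wnt arrays, so subtracting it could hardly narrow genes with a small SD. The risers had a median Wnt SD of 0.144 and the 253 genes one of 0.574. These shares therefore cannot tell which genes moved with the endothelial level of an array.

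Levels of some genes differed widely among Wnt arrays, for a few of them with 1 array far above the rest. Atp13a5, a pericyte gene, read 11.45 in Wnt array 5 and between 5.14 and 6.45 in the others, against 10.77 to 11.95 in hindbrain. In the same array Slc6a20a, a proline transporter, read 10.51, against at most 7.68 in the other 7. Slco1c1, the thyroxine transporter, read 11.69 in array 3 and 6.89 in array 6. Edn1, the endothelin-1 gene, read 9.74 in array 4 and at most 7.23 elsewhere, and Depp1 read 11.44 in array 4 and at most 9.72 elsewhere. Vtn, the vitronectin gene of pericytes, was lowest in arrays 1 (7.50) and 8 (8.13), which were also lowest in endothelial markers. Dkk2, a secreted Wnt inhibitor, ran from 8.16 in array 5 to 11.98 in array 6.

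Relative to the endothelial markers, the question is which genes fell by more than those markers did. Each value was reduced by the marker mean of its own array and the fit repeated. Over all genes, 2.86% were then lower and 89.7% higher, because a gene that kept its level now counts as higher by about 2-fold. The lower calls, 635 in number, also depend on how the markers enter. They were 1295 with the sort antigens as markers and 2130 with the marker mean as a covariate, where the higher calls went from 19893 to 2451. Of the bright genes, 24.5% rose and 49.3% fell directly, and relative to the markers 15% were lower and 68.7% higher. Because bright genes are chosen by their hindbrain level, falls are favoured among them.

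The bright genes fall into 5 sets. Beyond the markers fell 253 genes, with a median of -1.95. Another 267 (15.8%) fell without differing from the markers, with a median of -0.96, and 315 (18.6%) fell by less than the markers, with a median of -0.37. No direct change was called for 443, and 414 rose. Of the bright genes, 369 fell at least 2-fold and 24 rose at least 2-fold. The 253 genes became 421 with the sort antigens as markers, all 253 among them, and 187 with transcription factors and receptors, all within the 253. With the marker mean as a covariate they were 449, of which 217 were among the 253.

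**Figure D3:**
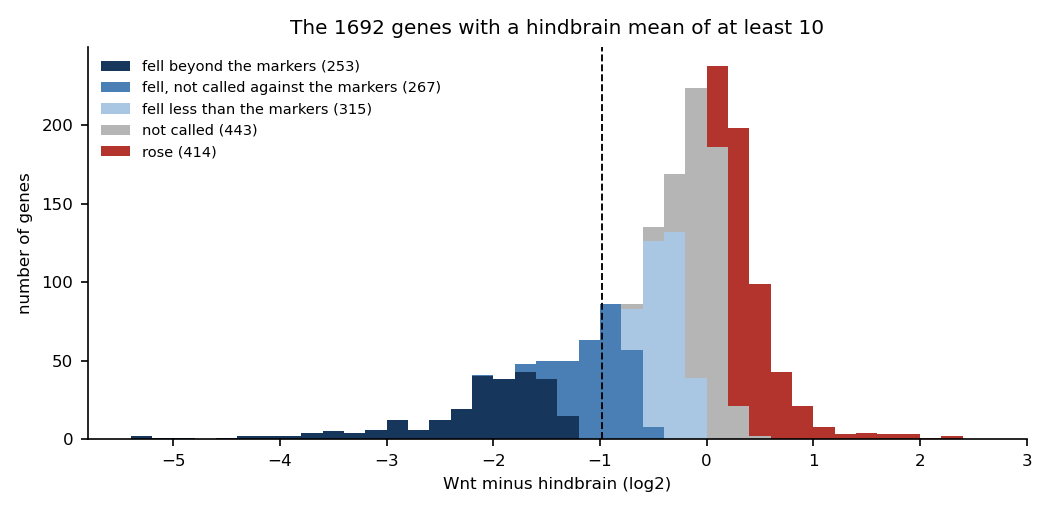
Number of bright genes (hindbrain mean of at least 10) in bins of the Wnt minus hindbrain difference (log2), stacked by their class. The dashed line marks the shift of the endothelial markers (-0.98). Of the 1692 genes, 253 fell beyond the markers and 414 rose.

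The largest losses are described here one by one, grouped after their values were seen by what the genes are known to do. Solute carriers as a family were lower relative to the markers in 27 of 361. Sgpp2, a phosphatase of sphingosine 1-phosphate, read 11.40, 11.68 and 11.92 in hindbrain and 5.88, 6.42 and 7.14 in Wnt arrays. It fell by 5.30 ± 0.17 (limma adjusted p = 1.12e-17), or -4.32 relative to the markers, with more than 4 units between the groups. Far2, a fatty acyl-CoA reductase, read 11.21, 11.52 and 11.79 against 5.67, 6.75 and 8.66 and fell by 4.58 ± 0.33. Degs2, a sphingolipid desaturase, fell by 4.15 ± 0.31, so 3 enzymes of sphingolipid and fatty alcohol metabolism stood among the 20 largest falls without overlap between groups.

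Several carriers were among them. Slc22a8, an organic anion transporter, read 12.33, 12.47 and 12.67 in hindbrain and 6.29, 7.65 and 8.94 in Wnt arrays, a fall of 4.89 ± 0.30. Slc40a1, the iron exporter ferroportin, fell by 4.22 ± 0.23, Slco1c1 by 4.05 ± 0.41 and Slc19a3, a thiamine transporter, by 3.73 ± 0.25. Car4, a membrane-anchored carbonic anhydrase of capillaries, read 12.31, 12.64 and 12.74 in hindbrain and 6.68, 8.10 and 10.44 in Wnt arrays and fell by 4.29 ± 0.44. Slc26a10 fell by 3.83 ± 0.11. In each of these 6 genes all Wnt arrays lay below all hindbrain arrays.

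Gkn3, a gastrokine gene, fell from 9.28, 10.07 and 10.43 to 4.89, 5.24 and 5.73, a range around the background level. Tecrl read 8.29, 8.67 and 9.54 in hindbrain and, with 1 array at 6.17, a median of 4.05 in Wnt arrays. Cdr1 fell from a median of 7.44 to 3.28, and the size of a fall that ends in background is uncertain.

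The secreted and surface signals that fell were Il1a (-5.22 ± 0.49), Edn1 (-3.92 ± 0.41), Sema3c (-3.77 ± 0.41) and Tnf (-3.75 ± 0.41). Il1a, a cytokine gene, read 10.78, 11.77 and 12.95 in hindbrain and 4.95, 6.90 and 8.02 in Wnt arrays, a wide spread in both groups that still left them apart. Slc2a5, Siglech and Selplg, which microglia express, fell by 3.98 ± 0.20, 3.95 ± 0.27 and 3.76 ± 0.32. Beside these 3, and beside Il1a and Tnf, stands the fall of 14 of 16 microglial markers, and its part in any of them was not tested.

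Many of these losses went further in Wnt than in Shh arrays. Of the 20 largest falls, 14 were also lower in Wnt than in Shh arrays and 1, Siglech, was higher, where 35.8% of all genes differed either way between the tumour groups. The difference from Shh arrays was -4.53 for Far2 and -4.32 for Slc40a1. Gkn3, Slc26a10 and Tnf did not pass that test, at -0.48, -0.11 and -0.26.

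Bright genes nearest to the shift of the endothelial markers were picked for that closeness, which does not show that they moved with the markers across arrays. With a hindbrain mean of at least 11, the 10 nearest ran from Nampt (-1.02) over Podxl, Cst3, Nek7, Clic4, Mcl1, Lilrb4a, Herpud1 and Epas1 to Serinc5 (-0.94). With the marker mean as a covariate, Podxl, Epas1 and Serinc5 did not pass. The others of the 10 stayed lower in that fit, among them Cst3 (-1.49) and Lilrb4a (-2.09). Podxl, a sialomucin of the luminal surface, and Epas1, the hypoxia factor of endothelium, are endothelial genes, while Cst3 and Lilrb4a are also made by myeloid cells. Among genes often used as references, Gapdh rose by 0.46 ± 0.08, Actb fell by 0.15 ± 0.05, Hprt fell by 0.86 ± 0.09 and Tbp did not pass the test (-0.06 ± 0.07). The call of Actb was lost without Wnt array 3 (-0.13) or hindbrain array 2 (-0.13) and with arrays set to the same median. That of Lilrb4a was lost without Wnt array 5 (-0.71), Wnt array 6 (-0.84), hindbrain array 3 (-0.88) or hindbrain array 6 (-0.85).

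Of the bright genes 414 rose, most of them by little, with a median of 0.37, and 24 by at least 2-fold. The largest of these rises are given here. Mxra8, a matrix-remodelling surface protein, read 9.97, 10.27 and 10.52 in hindbrain and 12.18, 12.55 and 13.01 in Wnt arrays, a rise of 2.36 ± 0.11 (limma adjusted p = 9.72e-15). Nkd1, a feedback inhibitor of Wnt signalling, rose by 2.26 ± 0.13, Dcn, the decorin gene of fibroblasts, by 2.03 ± 0.15 and Wls, the carrier that brings Wnt proteins to the cell surface, by 1.93 ± 0.11. Gja1, a connexin, rose by 1.74 ± 0.15 and Ccnd1, cyclin D1, by 1.57 ± 0.13.

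Calcrl and Tnfrsf19 are genes that brain endothelium expresses. Calcrl, the receptor of adrenomedullin, lay between 10.78 and 11.10 in hindbrain and between 11.50 and 13.04 in Wnt arrays, a rise of 1.44 ± 0.16 that was 2.42 relative to the markers. Tnfrsf19, a TNF receptor family member known as a Wnt target, read 11.01, 11.28 and 11.45 against 12.40, 12.80 and 12.94 and rose by 1.48 ± 0.18. Of the 15 bright genes with the largest relative rise, 13 were also higher in Wnt than in Shh arrays, and Trp53i11 was lower (-0.55).

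The 20 largest rises are described by what the genes are known to do, in groups made after their values were seen. Some were Wnt pathway genes. Wif1, a secreted Wnt inhibitor, read 5.97, 6.25 and 6.32 in hindbrain and 12.52, 12.92 and 13.06 in Wnt arrays, a rise of 6.69 ± 0.29. Wnt16, a ligand, read 5.44, 5.64 and 6.08 against 11.28, 11.79 and 12.41 and rose by 6.15 ± 0.23, and Fzd10, a receptor, rose by 5.20 ± 0.19. In the family of R-spondins, Wnt ligands and Frizzled receptors, assembled after values had been seen, 14 of 34 rose and 3 fell.

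Others encode secreted proteins. A2m, a protease inhibitor, read 6.49, 7.30 and 8.13 in hindbrain and 13.27, 13.42 and 13.64 in Wnt arrays, a rise of 6.11 ± 0.44 to a narrow range. Chrdl1, an antagonist of BMP ligands, rose by 6.18 ± 0.37 and Srpx2, a secreted sushi-domain protein, by 5.79 ± 0.19. Fabp5, an intracellular carrier of fatty acids, rose by 5.87 ± 0.22.

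Several are known from nerve and muscle. P2rx2, an ATP-gated channel, read 4.93, 5.03 and 5.38 in hindbrain and 9.11, 10.89 and 11.99 in Wnt arrays and rose by 5.62 ± 0.29. Chrm3, a muscarinic receptor, rose by 5.55 ± 0.19, Mybpc1, a myosin-binding protein of muscle, by 5.85 ± 0.35, Cadps, which primes secretory vesicles, by 5.26 ± 0.29 and Neto1, a subunit that accompanies glutamate receptors, by 5.09 ± 0.26. Outside these groups, Otop3, a proton channel, read 5.77, 6.13 and 6.39 against 10.77, 11.33 and 11.83, with the smallest error of the 20 largest rises (5.19 ± 0.15). Crym, a thyroid hormone binding protein, rose by 5.32 ± 0.33, and H2-M9, an MHC class I gene, by 4.97 ± 0.47.

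All 20 of the largest rises were also higher in Wnt than in Shh arrays. Fabp5 (2.38) and Lrrn1 (2.60) had the smallest such differences and Mybpc1 (6.34) and Wif1 (6.27) the largest. All 5 markers of the Wnt tumour rose in the same arrays, and the part of tumour cell RNA in these rises was not tested.

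**Figure D4:**
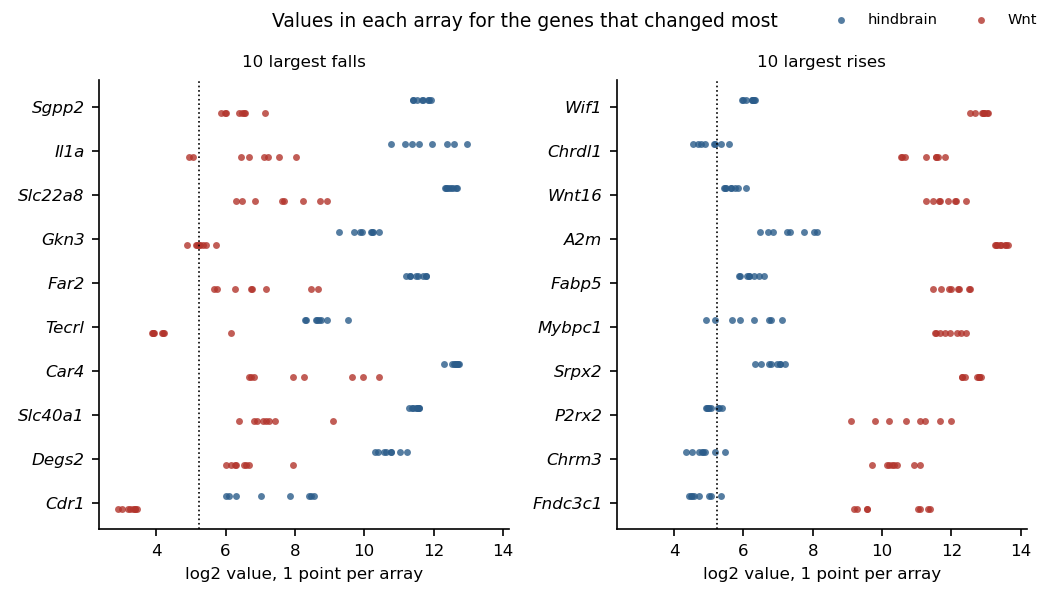
Log2 values of the 10 genes with the largest falls (left) and rises (right) among those named by rule, with 1 point per array, hindbrain in blue and Wnt in red. The dotted line marks background (5.24). In each gene shown the groups do not overlap, and Wnt values of Car4, Far2 and Slc22a8 spread over more than 2 units.

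Growth factor genes changed in both directions. In the list of FGF, PDGF, EGF and HGF ligands and receptors, 14 of 29 rose and 6 fell. Receptors rose: Fgfr4 (3.68 ± 0.22), Fgfr2 (3.60 ± 0.22), Fgfr1 (2.31 ± 0.15) and Kit (2.23 ± 0.19). Fgfr2 read 6.07, 6.98 and 7.76 in hindbrain and 10.13, 10.47 and 10.87 in Wnt arrays. Ligands split within a family. Pdgfc rose by 3.72 ± 0.21, while Pdgfb, the ligand with which endothelium recruits pericytes, read 11.25, 11.43 and 11.57 against 8.55, 9.73 and 10.28 and fell by 1.89 ± 0.19, and Pdgfd fell by 1.56 ± 0.18. The fall of Pdgfb exceeded that of the markers by 0.91 and stands beside the fall of 7 of 12 pericyte markers. The median of the list was 0.27, and 0.10 without Wnt array 1.

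Feedback inhibitors of the MAP kinase pathway, which the pathway itself induces, rose in 10 of 17 and fell in 5, with a median of 0.66 against -0.02 for all genes. Dusp10 read 7.10, 7.19 and 7.39 in hindbrain and 9.51, 10.22 and 10.75 in Wnt arrays, a rise of 2.97 ± 0.15. Dusp4 rose by 2.25 ± 0.25, Spry4 by 1.84 ± 0.13 and Spred3 by 1.80 ± 0.11, whereas Dusp8 fell by 2.09 ± 0.20. The whole family of dual specificity phosphatases, to which these Dusp genes belong, went the other way, falling in 12 of 24 and rising in 5, with a median of -0.25. The ETS factors Etv4 (2.09 ± 0.15) and Etv5 (1.64 ± 0.21), known targets of FGF signalling, rose, while 9 of 20 ETS factors fell, Erg among them.

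Retinoid genes rose more often than they fell. Of 16, 8 rose, 1 fell and 7 did not pass, with a median of 0.35. Rdh10, which makes retinal from retinol, read 7.94, 8.16 and 8.30 against 10.48, 11.50 and 12.04 and rose by 3.23 ± 0.18. Aldh1a1, which makes retinoic acid, rose by 3.14 ± 0.22, the receptor Rarb by 2.58 ± 0.20 and Cyp26b1, which breaks retinoic acid down, by 2.28 ± 0.27. Rxra fell by 0.37 ± 0.09. All 4 rises were also higher in Wnt than in Shh arrays, from 1.84 for Rarb to 3.29 for Aldh1a1.

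Peptide and nitric oxide genes of vessel tone also changed in both directions, with 10 of 22 up and 8 down. Receptors and peptidases rose: Mme, neprilysin, by 3.47 ± 0.31, Aplnr, the apelin receptor, by 2.69 ± 0.19, Ednrb, an endothelin receptor, by 2.32 ± 0.27, and Npr3, a natriuretic peptide receptor, by 2.13 ± 0.31. Nos3, endothelial nitric oxide synthase, read 10.70, 11.11 and 11.34 against 8.33, 9.11 and 9.57 and fell by 2.03 ± 0.17, and Edn3, an endothelin, fell by 2.13 ± 0.24. Aplnr was lower in Wnt than in Shh arrays (-0.68).

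Matrix genes rose more often than they fell. Enzymes and core proteins of heparan sulfate and hyaluronan rose in 16 of 26 and fell in 3, with a median of 0.71. Sulf1, a sulfatase that trims heparan sulfate, rose by 3.68 ± 0.34 and the glypicans Gpc6, Gpc4 and Gpc1 by 2.70 ± 0.18, 2.67 ± 0.15 and 2.22 ± 0.20. Ndst3, a sulfotransferase, fell by 2.45 ± 0.28 and Gpc3 by 1.56 ± 0.26. Collagens rose in 29 of 44 and fell in 3, with a median of 0.78. Col12a1 read 6.79, 7.58 and 7.91 against 11.69, 12.42 and 12.91 and rose by 4.91 ± 0.24, and Col27a1 fell by 0.92 ± 0.10. The rise of fibroblast markers stands beside both.

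Adhesion receptors differed by family. Cadherins and protocadherins rose in 35 of 58 and fell in 10, with a median of 0.96. Pcdh7 rose by 4.78 ± 0.23, Cdh6 by 3.69 ± 0.26 and Cdh11 by 3.42 ± 0.16, and Cdh23 fell by 1.64 ± 0.14. Eph receptors and ephrins rose in 11 of 19 and fell in 3, with Ephb6 (2.69 ± 0.17) and Efna4 (1.81 ± 0.13) at the top and Epha4 (-1.25 ± 0.24) at the bottom. All integrin chains together rose in 6 of 30 and fell in 10, while a shorter list of 18 had 6 up and 5 down, with Itga8 at 2.11 ± 0.35 and Itgb5 at -1.27 ± 0.17. Of matrix metalloproteases and their inhibitors 9 of 26 rose and 6 fell, led by Mmp2 (3.61 ± 0.25) and Timp1 (3.06 ± 0.22). Tspan6, a tetraspanin, read 8.59, 8.97 and 9.30 against 12.46, 12.84 and 12.93.

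Most inflammatory lists fell more often than they rose. Of 21 NF-kappaB feedback and acute cytokine genes, 14 fell and 1, Csf2 (0.30 ± 0.10), rose, with a median of -1.06. Csf2 did not pass when its probe sets were averaged (0.14). Tnfaip3, a ubiquitin-editing inhibitor of NF-kappaB, read 10.06, 10.79 and 11.83 against 6.96, 7.87 and 8.78 and fell by 3.01 ± 0.26. Nfkbia, which holds NF-kappaB in the cytoplasm, fell by 1.90 ± 0.18, Nfkbiz by 2.07 ± 0.24 and Il1b by 2.08 ± 0.50. Relative to the markers 7 of the 21 were lower and 6 higher.

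Chemokines and their receptors fell in 22 of 52 and rose in 5. Ccl4, a chemokine gene of myeloid cells, fell by 2.98 ± 0.33, while Cxcl14 read 7.52, 7.73 and 7.92 against 11.19, 12.30 and 12.68 and rose by 4.45 ± 0.21. MHC genes fell in 15 of 34, with H2-Q5 at -3.54 ± 0.26, and rose in 3. Guanylate-binding and interferon-induced proteins fell in 21 of 53 and rose in 7. Gbp5, a GTPase of the interferon response, fell by 3.31 ± 0.23. The 3 proteasome subunits that interferon induces fell, Psmb9 by 1.25 ± 0.15, Psmb10 by 1.24 ± 0.10 and Psmb8 by 0.85 ± 0.15, while 24 of all 49 proteasome subunits rose and 5 fell. Complement genes were even, 7 up and 7 down of 18, with Masp1 at 2.88 ± 0.32 and C3ar1 at -1.88 ± 0.38. The microglial loss stands beside these falls.

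Lipid genes are given by branch. Sterol synthesis genes fell in 10 of 18 and rose in 3, with a median of -0.39: Insig1 fell by 1.53 ± 0.15, Msmo1 by 1.18 ± 0.10 and the transcription factor gene Srebf2 by 0.95 ± 0.09, while Hmgcs1 rose by 0.60 ± 0.14. Fatty acid genes were even, with 5 up and 6 down of 18. Fads2, Elovl6 and Fasn, which make and desaturate fatty acids, rose by 1.90 ± 0.20, 1.72 ± 0.14 and 1.52 ± 0.15, and Acacb, which restrains their oxidation, fell by 1.96 ± 0.24. Eicosanoid genes fell in 9 of 20 and rose in 4, with Pla2g4a, which releases arachidonic acid, at -1.77 ± 0.19 and the receptor Ptger3 at 1.96 ± 0.28. Lysosome and autophagy genes fell in 12 of 21 and rose in 1, and cathepsins fell in 10 of 22 and rose in 1.

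Genes of amino acid supply and translation rose more often than they fell. Asns, asparagine synthetase, lay between 7.78 and 8.31 in hindbrain and between 11.54 and 12.32 in Wnt arrays, a rise of 3.91 ± 0.16 (limma adjusted p = 1.08e-15), and Psat1, of serine synthesis, rose by 3.52 ± 0.23. Atf4, the transcription factor known to drive both, fell by 0.56 ± 0.08, and of 18 genes of serine synthesis and amino acid starvation 8 rose and 2 fell. Transfer RNA synthetases rose in 14 of 18 with 0 falls, each by little: the median was 0.32 and the largest, Kars and Rars, were 0.44. Mitochondrial ribosomal proteins rose in 46 of 71 and fell in 1, with a median of 0.27, and complex I subunits rose in 21 of 42 and fell in 2. Chaperones of the endoplasmic reticulum rose in 11 of 18, with Hyou1 and Pdia6 both at 0.71, and fell in 5, with the stress factor Ddit3 at -1.41 ± 0.13 and Hspa5 at -0.37 ± 0.09.

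Cell division families rose more often than they fell. Replication origin and minichromosome proteins rose in 16 of 22 and fell in 1, centromere proteins rose in 16 of 20 and fell in 1, and kinesins rose in 18 and fell in 9 of 38. The mitotic kinesins Kif11 (2.86 ± 0.26) and Kif20a (2.51 ± 0.23) led the rises, and Kif5a (-1.92 ± 0.21), a transport kinesin, and Kif26a (-1.77 ± 0.12) the falls. Cdk1, the mitotic kinase, read 5.72, 6.33 and 6.67 against 8.71, 9.77 and 10.37. Kif11, Kif20a and Cdk1 did not pass the test between Wnt and Shh arrays, at -0.49, 0.15 and -0.22. Of Polycomb, DNA methylation and HMG genes 7 of 22 rose and 5 fell, and in pairs: Ezh2 rose by 1.16 ± 0.13 while Ezh1 fell by 1.31 ± 0.11, and Uhrf1 rose by 1.69 ± 0.20 while Cbx7 fell by 1.58 ± 0.15.

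**Figure D5:**
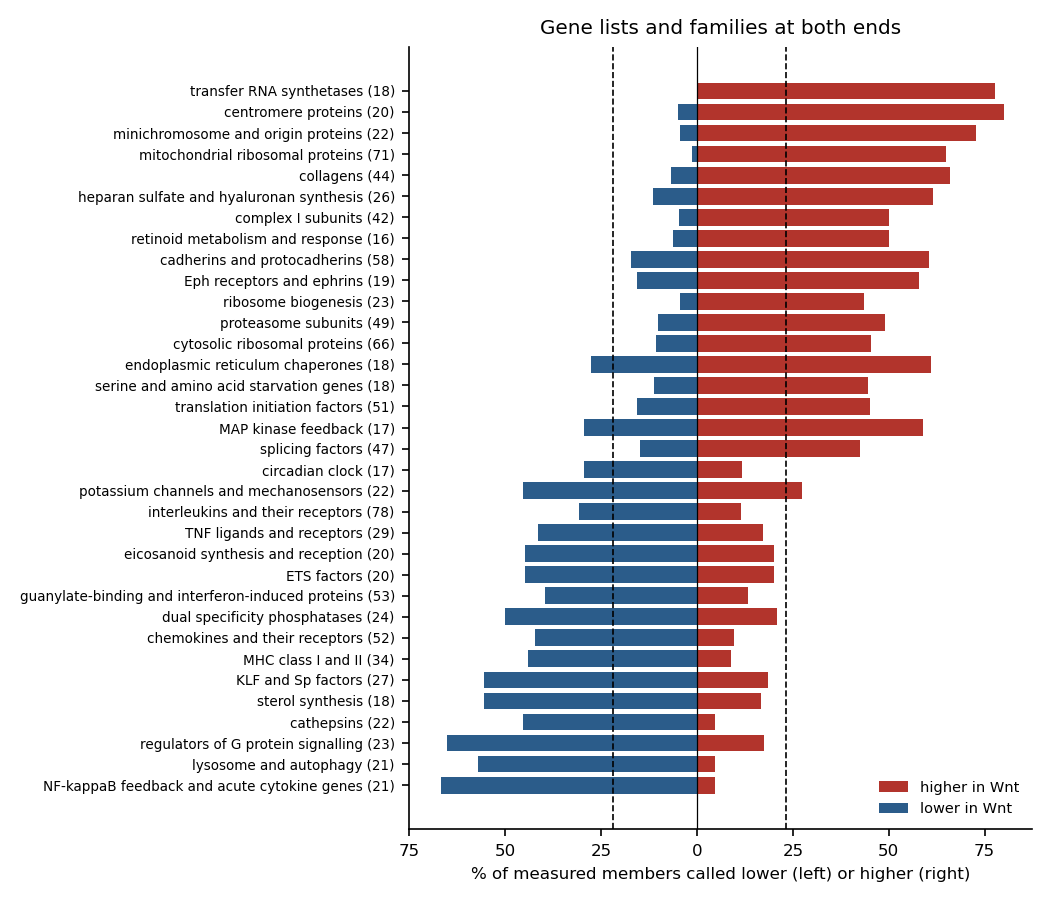
Share of the measured members of each list or family called higher (red, right) or lower (blue, left) in Wnt arrays, with the number measured in parentheses. Dashed lines mark the shares over all genes (23.2% and 22%). The groups shown were taken from both ends of the order by the difference of the shares, with translation, division and matrix families at the top and inflammatory, lysosomal and KLF families at the bottom.

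Transcription factor families changed in both directions, where 23.2% of all genes rose and 22% fell. KLF and Sp factors fell in 15 of 27 and rose in 5. Klf4 read 11.25, 11.42 and 11.85 against 8.42, 9.04 and 10.38 and fell by 2.35 ± 0.23, and Klf2, which blood flow induces, fell by 1.95 ± 0.16. All 5 risers rose at least 2-fold. Among them were Sp5 (3.20 ± 0.15), a known target of Wnt signalling, Sp6 (2.76 ± 0.20) and Sp7 (2.36 ± 0.16), these 3 with no overlap between groups. Fox genes fell in 15 of 45 and rose in 8. Foxq1 read 10.63, 10.96 and 11.11 against 6.53, 7.53 and 8.59 and fell by 3.39 ± 0.20, and Foxa1 rose by 2.69 ± 0.53 in a spread from 5.14 to 10.70. Of 37 Hox genes only Hoxb9 passed (2.12 ± 0.38), with Wnt values from 5.78 to 9.69 that overlapped hindbrain, and 16 lay at background in both groups.

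Receptor and channel families also changed in both directions, as all genes did (23.2% up, 22% down). Regulators of G protein signalling fell in 15 of 23, with Rgs4 (-2.16 ± 0.32) and Rgs10 (-2.05 ± 0.22), and rose in 4, with Rgs9 (2.57 ± 0.20). A list of potassium channels, mechanosensors and nucleotide receptors fell in 10 of 22 and rose in 6. The whole family of 90 potassium channel subunits was even, with 23 up, 25 down and a median of 0.03. Trpv4, a calcium channel of endothelium, fell by 1.97 ± 0.15 and the nucleotide receptor P2ry1 by 1.78 ± 0.21, while Piezo2, a mechanosensor of sensory neurons, read 5.28, 5.41 and 5.65 against 8.44, 9.33 and 9.77. Glutamate and GABA receptors rose in 13 of 39 and fell in 9, led by Grik1 (4.76 ± 0.19), Gria3 (4.10 ± 0.25) and Gabrg3 (3.64 ± 0.21). Solute carriers as a whole fell in 111 and rose in 86 of 361. Slc27a6 (4.45 ± 0.20) and Slc43a3 (4.23 ± 0.19) rose most.

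Olfactory receptors, a family not known for a role in endothelium, mostly stayed dark. Of 1105, 985 lay at background in both groups, 22 rose and 49 fell. Olfr111 (-3.47 ± 0.42) and its neighbour Olfr110 (-2.69 ± 0.35) fell most, from 5.28 to 7.44 and from 5.24 to 7.06 among hindbrain arrays. Of 285 vomeronasal receptors, 6 rose and 10 fell. Keratins rose in 7 of 53 and fell in 5, with Krt18 at 3.89 ± 0.28 and Krt23 at 3.67 ± 0.60.

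Some changes came in blocks of neighbouring genes. With measured protein-coding genes alone in the order of the RefSeq annotation, 24 runs of at least 7 adjacent ones were called in 1 direction. The longest was the Pcdhb cluster on chromosome 18, where Pcdhb2 to Pcdhb22, 21 genes, all rose with a median of 1.37. Members of this cluster are close copies and may share signal, so they are no independent counts. Pcdhb2 read 4.28, 4.94 and 5.43 against 6.30, 7.95 and 9.18.

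On chromosome 13 a run of 8 genes fell with a median of -1.01, from Dusp22 over Foxq1, Foxf2 (-1.60 ± 0.24) and Foxc1 (-1.80 ± 0.17) to Gmds. Foxf2 is known from brain pericytes and Foxc1 from the meninges, but neither gene is confined to them. Foxc1 fell while 8 of 12 fibroblast and meningeal markers rose. Which cells lost these transcripts was not tested. On chromosome 7 fell 8 Trim genes (median -1.25), with Trim30a at -1.42 ± 0.18, which encode antiviral ubiquitin ligases and are also close copies. Chromosome 15 held 7 rising genes from C1qtnf3 to Npr3 with a median of 2.05. A run of 15 falling predicted genes on chromosome 14 (median -1.23) is a repeated family. Whole chromosomes were even, with medians from -0.06 on chromosome 14 to 0.03 on chromosome 10.

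Promoters of 4 genes are printed because their letters hold the motif that regulators of their group bind. Cdk1 stands for the rising division genes, Nfkbia and Gbp5 for falling inflammatory genes, and Sp5 is the rising Wnt target. The windows are RefSeq's on GRCm38.p6, 300 bases from 250 before to 50 after the start of transcription, written 5′ to 3′ on the strand of the gene, with motif matches in capitals. The Cdk1 window is chr10:69352863-69353162 on the minus strand and its capitals are the CHR motif of cell cycle promoters, TTTGAA. The Sp5 window is chr2:70474673-70474972 on the plus strand with the TCF/LEF motif CTTTGAT. The Nfkbia window is chr12:55492598-55492897 on the minus strand with an NF-kappaB site, and the Gbp5 window is chr3:142496684-142496983 on the plus strand with the interferon element GAAANNGAA, read on the other strand.
Cdk1: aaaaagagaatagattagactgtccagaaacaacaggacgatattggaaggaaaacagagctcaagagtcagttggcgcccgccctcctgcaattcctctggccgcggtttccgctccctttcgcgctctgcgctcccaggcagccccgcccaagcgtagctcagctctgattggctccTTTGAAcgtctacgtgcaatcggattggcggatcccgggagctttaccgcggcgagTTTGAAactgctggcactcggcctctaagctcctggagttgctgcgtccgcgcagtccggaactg
Sp5: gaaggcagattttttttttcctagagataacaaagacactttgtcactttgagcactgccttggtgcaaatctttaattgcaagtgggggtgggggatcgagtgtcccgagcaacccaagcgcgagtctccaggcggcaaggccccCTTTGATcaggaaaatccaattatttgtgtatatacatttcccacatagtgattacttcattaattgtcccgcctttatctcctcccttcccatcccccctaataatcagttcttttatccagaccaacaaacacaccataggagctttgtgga
Nfkbia: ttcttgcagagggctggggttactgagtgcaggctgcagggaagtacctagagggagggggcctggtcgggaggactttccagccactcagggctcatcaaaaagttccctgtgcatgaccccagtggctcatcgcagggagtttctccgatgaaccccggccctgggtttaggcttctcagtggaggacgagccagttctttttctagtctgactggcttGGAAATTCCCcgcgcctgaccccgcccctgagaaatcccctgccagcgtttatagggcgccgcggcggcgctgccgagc
Gbp5: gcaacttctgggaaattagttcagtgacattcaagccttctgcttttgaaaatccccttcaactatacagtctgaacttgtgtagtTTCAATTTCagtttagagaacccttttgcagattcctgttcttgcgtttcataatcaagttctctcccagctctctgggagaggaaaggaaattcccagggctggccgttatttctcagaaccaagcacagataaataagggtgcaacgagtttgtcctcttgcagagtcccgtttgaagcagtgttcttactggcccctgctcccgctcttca

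Motifs were searched on both strands in 20520 windows of 16918 measured genes. Among the kinesins that rose, 11 of 19 windows (57.9%) held TTTGAA, among those that fell 0 of 7, and of all windows of measured genes 15.4% held it. All kinesins, whichever way they moved, held it in 12 of 35. Among rising origin and minichromosome proteins, 5 of 14 windows (35.7%) held the E2F motif TTTCCCGC, against 1.41% of all and 5 of 22 in the family whichever way a gene moved. Falling interferon-induced proteins held GAAANNGAA in 10 of 18 windows (55.6%), against 8.05% of all windows, and the family held it in 24 of 46 windows whichever way a gene moved. Falling genes of the NF-kappaB list held an NF-kappaB site in 9 of 16 windows, the list whichever way a gene moved in 13 of 22, and 9.33% of all windows did.

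For genes at large, the motifs differed little between directions. Windows of genes that rose at least 2-fold held CTTTGAT in 3.26%, those that fell in 2.62% and all windows in 3.28%, and 0 of 6 windows of the Wnt tumour markers held it. The interferon element stood in 7.10% of rising and 10.4% of falling windows, and CCAAT in 40.1% and 32.6%, with 37.7% of all. The ETS motif CCGGAAGT, common in housekeeping promoters, stood in 3.04% of rising and 1.69% of falling windows but in 9.94% of those of genes called neither way with a hindbrain level above 7. A ratio of observed to expected CpG of at least 0.6 was found in 54.6% of rising, 40.7% of falling and 72.4% of uncalled windows. A match in such a window is a description of its letters and does not show that a factor binds there.

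Long non-coding RNAs fell more often than they rose. Of 1926 long non-coding RNAs, 161 (8.36%) rose and 352 (18.3%) fell, with 47.0% at background, against 25.6% up and 22.9% down of 18964 protein-coding genes, of which 19.8% lay at background. Rises followed neighbouring coding genes in name: Otx2os1 (3.50 ± 0.23) with Otx2, Fzd10os (2.77 ± 0.17) with Fzd10. 2900092D14Rik rose by 4.84 ± 0.28. Among the falls, Gm10790 changed by -3.73 ± 0.22, Ipw, of the imprinted Prader-Willi region, by -2.79 ± 0.33 and Snhg11 by -1.71 ± 0.18. Antisense and overlapping transcripts cannot be separated here, since the strand the probes read is not given.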

How the data were processed

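RNA of sorted endothelial cells was hybridised to Affymetrix arrays, 8 per group, and 24 arrays of 3 groups entered the fits. The authors deposited log2 values, 1 per probe set and array. The submitters' processing notes name Partek 6.6 without a role; for the background correction, summarisation, normalization and array build, the sources used here give nothing, so no read depth applies and the number of arrays limits precision. Array medians lay between 5.97 and 6.18, and every column of the table was matched to a sample by its label.

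Of 41345 probe sets, 23521 carried exactly 1 gene symbol, 1814 several and 16010 none. The probe set with the highest mean over 24 arrays stood for its gene, and 1082 of 22180 genes had more than 1. Of the genes, 21994 (99.2%) matched the RefSeq table of GRCm38.p6, used for names, neighbours, gene types, microRNAs and promoters.

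The limma 3.58.1 fit (R 4.3.3) over all 3 groups left 21 residual degrees of freedom, and calls used Benjamini-Hochberg adjustment over all genes at 0.05. P-values across genes measure the spread between the arrays of a group, whose separate animals are not described. A second fit subtracted from each value the mean of 16 endothelial markers of the same array. The marker mean was compared by an exact permutation test. The fits were tested on simulated data.

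The 43 lists, 53 families and the arrays compared were chosen with earlier results of these data known, as was the alternative without Wnt arrays 1 and 8. Of the families, 1 is not reported here. Named genes were the 20 largest rises and falls without overlap between groups, the 3 largest each way of a list and the largest each way of a family. To these came the 15 bright genes furthest each way relative to the markers, the 10 nearest to the marker shift and a fixed set. The fixed set held endothelial surface genes, genes of the mouse model, reference genes and sex-linked genes. Of 224 genes named, 62 fall outside that rule and were chosen after their values were seen. Alternatives changed the probe set rule, normalization, dim gene filter, variance model, array weights, arrays in the fit, marker set and the replicate number as a block. Replicate numbers were not taken as pairs: the correlation of deviations of same-numbered arrays ran from -0.15 to 0.10. The labels name no batch.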

Additional observations from a re-analysis of the deposited data

Results flagged for a closer look

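Among the named genes, 34 of 450 groups of 8 arrays held an array far from the other 7 by Dixon's gap test at 95%, where chance flags about 1 in 20 groups. Wnt array 4 stood apart most often, in 9 genes. It was highest in Acacb (8.40), Degs2 (7.94), Edn1 (9.74), Mcl1 (10.92) and Tecrl (6.17) and lowest in Aldh1a1 (11.11), Ccnd1 (11.04), Efna4 (7.94) and Spred3 (8.52). This array had the highest endothelial marker mean of the Wnt arrays, 10.99.

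Wnt array 5 was highest in Atp13a5 (11.45) and Slc6a20a (10.51) and lowest in Itgb5 (9.16). Wnt array 3 was highest in Ipw (6.31) and Otx2os1 (9.81) and lowest in Rarb (7.78). Wnt array 1 was lowest in Foxf2 (6.81) and Slc26a10 (5.66), Wnt array 2 highest in Slc40a1 (9.11), Wnt array 6 lowest in Pcdhb22 (6.20) and Wnt array 7 lowest in Tbp (8.67). Wnt array 8 was highest in Herpud1 (10.90) and lowest in Hprt (8.47).

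Of the hindbrain arrays, array 6 was lowest in Car4 (12.31), Fgfr1 (7.96), Gmds (8.11), Gpc1 (7.39) and Slc6a20a (9.72). Array 8 was highest in Clec14a (9.81) and Trpv4 (9.88) and lowest in Ptger3 (5.66). Array 1 was lowest in Prox1 (6.04) and Trim30a (7.67), array 3 in Pla2g4a (9.72) and array 5 in Hoxb9 (5.35).

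Probe sets without a single gene symbol entered no comparison above. Of 17634 such probe sets, 10536 lay above background, and limma called 1354 higher and 2369 lower in Wnt arrays.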

How the results depend on the processing

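Direct calls held under every alternative tried within 1.5 times of the main counts of 5152 higher and 4888 lower: from 4725 to 5786 higher and from 3868 to 5227 lower. The split moved most when each array was set to the same median, from 51.3% to 59.9% of calls higher. With the replicate block, 5064 genes were higher and 4787 lower, 19935 higher and 649 lower relative to the markers, and the marker mean differed by -0.98 (exact sign-flip permutation p = 0.0078125). Leaving out 1 array gave from 4888 to 5292 higher and from 4601 to 4954 lower calls, from 562 to 736 lower and from 19617 to 20102 higher relative to the markers, and marker differences from -1.06 to -0.88.

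Relative calls depend on how the markers enter. The 635 lower calls became 1295 with the sort antigens as markers and 2130 with the marker mean as a covariate, where the higher calls went from 19893 to 2451. The lower calls were 871 without Wnt arrays 1 and 8 and 427 with transcription factors and receptors as markers. The covariate fit asks a different question, since it also uses the marker differences within a group.

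Of the genes named, none that passed the direct test reversed under the alternatives to that fit. With the marker mean as a covariate, 37 of the 221 did not pass and 3 changed sign: Cdh5, which then passed as higher (0.27), Depp1 (0.32) and Vtn (0.00446). Clec14a, which did not pass, lay between -0.0688 (without Wnt replicate 4) and 0.194 (without Wnt replicate 1) when single arrays were left out, at 0.36 without Wnt arrays 1 and 8, and below 0 also without Wnt replicates 5 and 6. Pik3ca turned to -0.0047 with array weights, to -0.0059 without Wnt arrays 1 and 8 and lay between -0.0236 and 0.0333 without single arrays, and Tbp to 0.0016 with the same array median. The 8 lost calls belong to Actb, Csf2 and Lilrb4a. Low values near background limit the size of a fall, and no alternative tests the unstated normalization.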

Other observations

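Heat shock proteins and their cochaperones fell in 25 of 68 and rose in 15. Promoter windows of the falling members held the heat shock element GAANNTTC in 9 of 31 (29.0%), the family whichever way a gene moved in 15 of 71 (21.1%), and 6.96% of all windows did. Hspa1b, an inducible heat shock protein, ran from 7.90 in Wnt array 7 to 11.63 in Wnt array 5, an SD of 1.53 over the 8 arrays.

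Small nucleolar RNAs rose in 23 of 80 and fell in 17. Serpins rose in 10 of 54 and fell in 6, with Serpina3n, an acute-phase protease inhibitor, at 4.75. Circadian clock genes fell in 5 of 17 and rose in 2, and glucocorticoid response genes fell in 4 of 17 and rose in 3. Over all genes, 23.2% rose and 22% fell.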
